A study of Rattus norvegicus with 14 samples.

Results

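The insulin-like growth factor (IGF) genes described here are the ligands Igf1 and Igf2, the receptors Igf1r and Igf2r, and the binding proteins Igfbp2, Igfbp3, Igfbp4, Igfbp5, Igfbp6 and Igfbp7. Members were the probe sets, groups of short DNA probes that report 1 transcript, whose array annotation gave exactly 1 gene symbol equal to one of these names. All 10 genes were measured, by 23 probe sets, out of 14217 gene symbols on the array. Left ventricle RNA came from male Wistar rats 16 weeks after an injection into the tail vein. The 7 controls were given saline, and the 7 diabetic animals streptozotocin at 60 mg/kg, a toxin taken up by the pancreatic beta cells that make insulin. Animals of both groups were anaesthetised with halothane and housed in pairs, their hearts were perfused with buffered saline before dissection, and each animal was measured on its own Affymetrix Rat Genome 230 2.0 array. A description field of the diabetic samples names saline, whereas their titles, source names and growth protocol name diabetes or streptozotocin, and the titles were followed. The labels state no age. The model is one of insulin deficiency at a single time point, and whole ventricle mixes muscle with vessels, fibroblasts and blood-derived cells.

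IGF-I and IGF-II are small secreted proteins related to insulin. They act through the type 1 receptor, a tyrosine kinase encoded by Igf1r that closely resembles the insulin receptor. The Igf2r product has no such kinase. It binds IGF-II and proteins that carry mannose 6-phosphate, and delivers both to lysosomes. In blood and tissue most IGF is held by binding proteins, which prolong its life, keep it from the receptor or release it after cleavage by proteases. In the heart, IGF-I is made locally as well as delivered from the liver, and it is known to promote growth and survival of muscle cells.

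By their brightest probe sets, Igfbp3 was called higher and Igfbp5 lower in the diabetic left ventricle, and the other 8 genes did not pass the test. The Igfbp3 call was narrow (limma adjusted p = 0.0483) and was lost in 13 of 14 fits with 1 array left out. The remaining probe sets of Igfbp5 were not called. Each gene was represented by its brightest probe set, and signals are given as log2(scaled signal + 50). Igfbp3 was 1.56-fold higher (95% interval 1.26 to 1.95) and Igfbp5 2.19-fold lower (1.60 to 3.01) on this scale, which understates the change of genes with low signal. The ligands Igf1 and Igf2 differed by log2 -0.02 ± 0.15 and 0.12 ± 0.17 (SE, n = 7 per group). Over the whole array 0.619% of 31042 probe sets were called higher and 0.522% lower (limma adjusted p under 0.05), 1.14% in all. With 1 of 10 genes called each way, the median difference of the 10 genes was 0.05, against -0.003 over all probe sets. Over all 23 probe sets of these genes, 2 were called (8.7%), and 7 (30.4%) had an unadjusted p under 0.05, against 9.61% of all probe sets. Those 7 belong to 4 genes, so they are not separate measurements of 7 genes. The genes were chosen with results of these data known, so these shares are descriptions.

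Because Igfbp3 and Igfbp5 were the only members called, the 250 bases before their annotated starts are shown (RefSeq, assembly GRCr8). The Igfbp3 stretch lies at chr14:86277945-86278194 on the minus strand and that of Igfbp5 at chr9:81914188-81914437, also on the minus strand. Capitals mark the motifs searched for.
Igfbp3: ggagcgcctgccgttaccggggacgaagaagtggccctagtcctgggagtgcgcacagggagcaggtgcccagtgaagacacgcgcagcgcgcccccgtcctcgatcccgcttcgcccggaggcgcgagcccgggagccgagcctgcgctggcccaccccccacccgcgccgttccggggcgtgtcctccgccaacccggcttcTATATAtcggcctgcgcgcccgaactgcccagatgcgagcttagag
Igfbp5: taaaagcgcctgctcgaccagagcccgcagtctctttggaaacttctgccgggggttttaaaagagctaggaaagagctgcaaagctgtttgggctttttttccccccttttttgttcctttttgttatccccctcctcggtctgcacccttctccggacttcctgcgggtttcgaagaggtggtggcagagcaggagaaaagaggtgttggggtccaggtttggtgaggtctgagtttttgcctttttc
Motifs were sought on both strands of this stretch in 33469 RefSeq promoters. They were the TATA box TATAAA (in 12.9% of them), TATATA, which can overlap it, the GC box GGGCGG (30.5%), the forkhead core GTAAACA (3.21%), and CAAAACAA from the insulin response element of Igfbp1 (1.94%). TATATA occurred in the Igfbp3 stretch, 46 bases before the start, and in 5.45% of all promoters. None of these motifs was found in the Igfbp5 stretch. The stretches differed in base composition, with 71.6% G and C for Igfbp3 and 51.6% for Igfbp5. Of the 11 promoters of the 10 genes, CAAAACAA occurred in that of Igf1, GTAAACA in that of Igfbp6, TATAAA in that of Igfbp4, and GGGCGG in 5 (Igf1r, Igf2, Igf2r, Igfbp2 and Igfbp7).

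**Figure D1:**
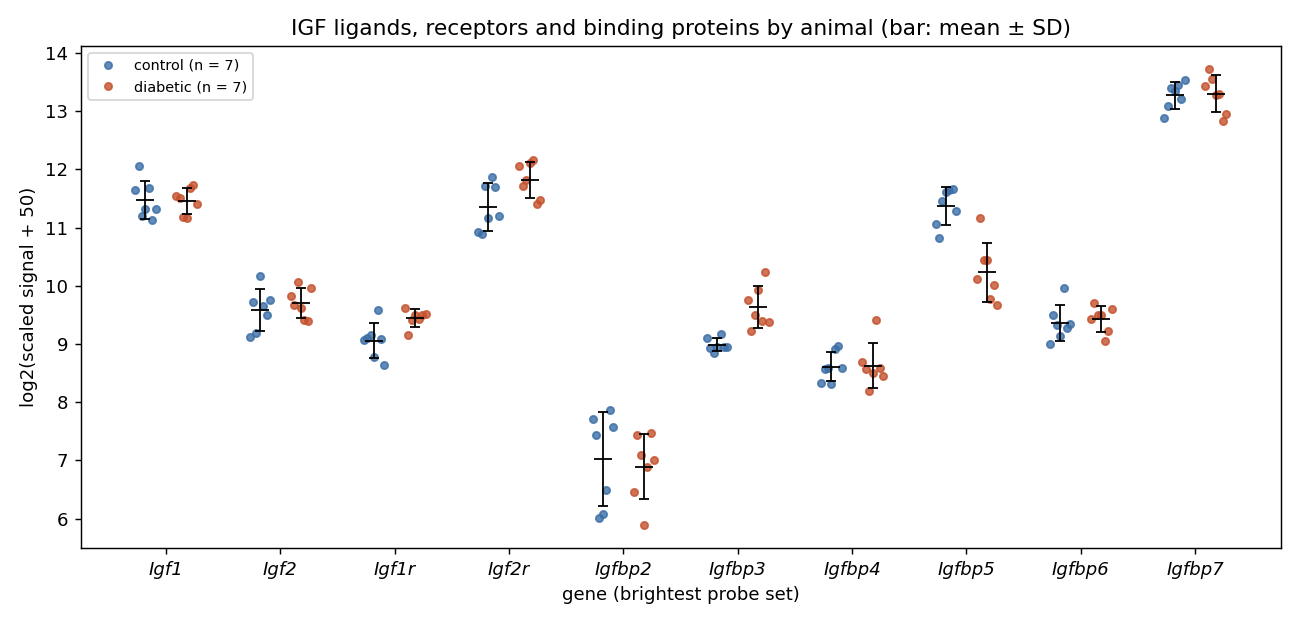
Log2(scaled signal + 50) of the brightest probe set of each of the 10 genes, 1 point per animal, with the mean and SD of the 7 control (blue) and 7 diabetic (red) animals. For Igfbp3 all 7 diabetic points lie above all control points, and for Igfbp5 6 of 7 lie below them; levels of different genes cannot be compared, since they come from different probes.

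Igf1, the main growth-promoting ligand after birth, did not pass the test. In controls its log2 signal (probe set 1370333_a_at) ran from 11.14 over a median of 11.33 to 12.06, and in diabetic animals from 11.17 over 11.51 to 11.73. The diabetic range lay inside that of the controls. The fold was 0.989 with an interval from 0.788 to 1.24 (limma adjusted p = 0.988). Its other probe sets, 1388469_at and 1382599_at, differed by log2 0.07 and -0.02.

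Igf2, the ligand that dominates before birth and is expressed from the paternal copy, had 1 of its 4 probe sets well above the floor. Probe set 1367571_a_at ran from 9.12 over 9.66 to 10.18 in control and from 9.40 over 9.68 to 10.06 in diabetic animals. The groups overlapped throughout, with a 1.09-fold difference (0.849 to 1.39, limma adjusted p = 0.897). The other 3 probe sets of Igf2 had mean scaled signals below the added 50 (log2 means from 5.83 to 6.19, where the offset alone gives 5.64), so a change there could hardly be seen.

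Both receptors had higher group means in diabetes, and neither passed over all probe sets. Igf1r (probe set 1392492_at) ran from 8.64 over 9.09 to 9.59 in control and from 9.15 over 9.50 to 9.62 in diabetic animals. All 7 diabetic animals lay above the control median, and 1 lay above all controls, control replicate 5 being high. The 1.31-fold difference (1.07 to 1.60) had a limma adjusted p of 0.306 and an exact two-sided permutation p of 0.0157, unadjusted. The second Igf1r probe set, 1368123_at, differed by log2 0.05 ± 0.17 (SE). The gap between the probe sets was log2 0.33 (exact permutation p = 0.0402, and 0.131 adjusted over 13 pairs of probe sets).

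Igf2r, the scavenger receptor of IGF-II, had similar group differences by its pair of probe sets. Probe set 1386872_at ran from 10.89 over 11.20 to 11.88 in control and from 11.40 over 11.82 to 12.16 in diabetic animals. Here 3 diabetic animals (replicates 1, 4 and 5) lay above all controls, and the remaining 4 within the control range. The difference was 1.38-fold (1.05 to 1.81, limma adjusted p = 0.39, exact permutation p = 0.039 unadjusted). The other probe set, 1367636_at, differed by 1.29-fold (1.04 to 1.59, limma adjusted p = 0.388), with 4 diabetic animals above all controls.

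Signals of the brightest Igf2r probe set moved with the control probe sets of the arrays, by which the arrays fall into 3 classes. Class C held 3 control and 3 diabetic arrays with low poly-A spike-ins, transcripts added to the RNA before labelling (log2 ratio to the cre control from -7.43 to -6.41, against -5.78 to -4.85 in the rest). The rest split by how far beta-actin's 3′ probes outshone its 5′ probes (log2 ratio), a sign of RNA and target length. Class A (2 and 2) had 1.41 to 1.71 and class B (2 and 2) 0.675 to 0.840. The labels name no batch, so what the classes stand for is not known. In class A, Igf2r (1386872_at) was 10.89 to 10.93 in control and 11.40 to 11.47 in diabetic arrays. In class B it was 11.17 to 11.20 and 11.72 to 11.82, and in class C 11.70 to 11.88 and 12.06 to 12.16. Diabetic arrays thus lay above the controls within each class, by log2 0.52, 0.58 and 0.34. With class as a block the difference was the same and limma called it (adjusted p = 0.00682), and 2 of the 10 genes were then higher, against 1.05% of all probe sets. The other Igf2r probe set, 1367636_at, was not called with class as a block (log2 0.36, limma adjusted p = 0.0854) or under any other setting tried. Its signals did not climb from class A to C but were lowest in class B (10.65 to 10.77 in control and 11.01 to 11.19 in diabetic arrays). Both Igf2r probe sets, the brightest ones of Igfbp3 and Igfbp5, and the dim Igf2 probe set 1398322_at had the groups apart the same way in all 3 classes. These are 5 of 23, against 3.54% of all probe sets.

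**Figure D2:**
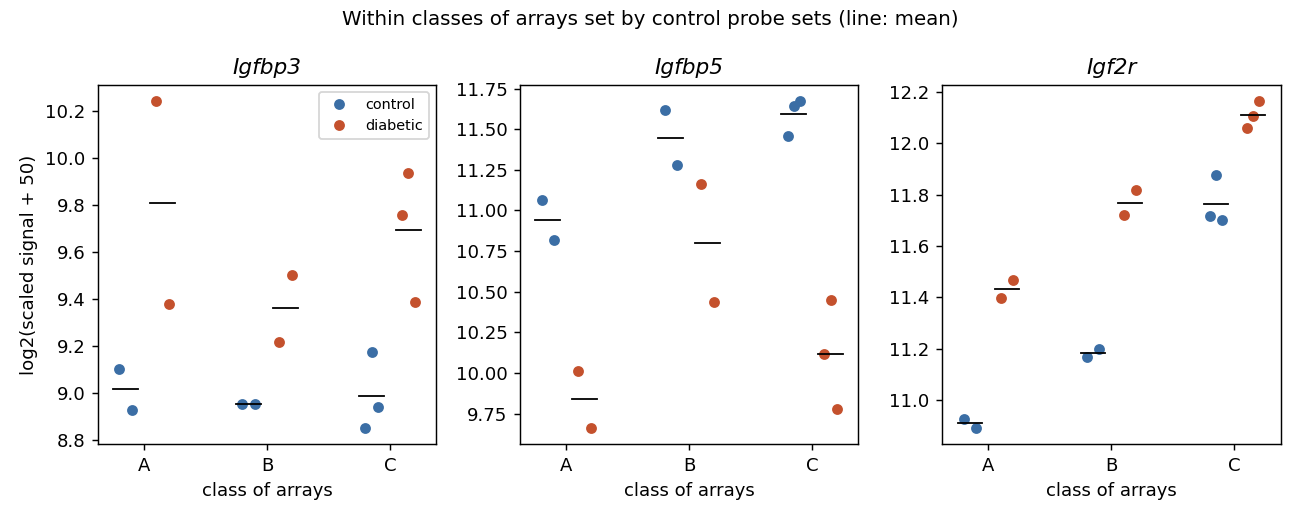
Log2(scaled signal + 50) of Igfbp3, Igfbp5 and Igf2r (brightest probe sets) within the 3 classes of arrays, 1 point per animal, control in blue and diabetic in red, with a line at each mean. In each class the diabetic points of Igfbp3 and Igf2r lie above the control points and those of Igfbp5 below, while the level of this Igf2r probe set climbs from class A to class C.

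Igfbp3, the chief carrier of IGF in blood, where it forms a complex with the acid-labile subunit, was higher in every diabetic animal. In controls probe set 1386881_at lay in a narrow band, from 8.85 over a median of 8.95 to 9.18 (SD 0.11). In diabetic animals it ran from 9.22 over 9.50 to 10.24 (SD 0.36). The groups did not overlap, though the lowest diabetic animal (replicate 2) lay just above the highest control (replicate 5), and diabetic replicate 6 was highest. Non-overlap held for 1 of the 23 probe sets (4.35%), against 1.20% of all (0.635% with the diabetic animals above and 0.564% with them below). The log2 difference was 0.64 ± 0.15 (SE, limma adjusted p = 0.0483, exact permutation p = 0.000583, the smallest that 7 against 7 allows). Within classes A, B and C it was 0.79, 0.41 and 0.70.

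The second Igfbp3 probe set, 1367652_at, gave nearly the same difference, 1.52-fold (1.23 to 1.88), and narrowly missed the threshold (limma adjusted p = 0.0617). It ran from 8.10 over 8.52 to 8.75 in control and from 8.72 over 9.12 to 9.39 in diabetic animals, with 6 of 7 above all controls. The mean of both probe sets was called (log2 0.62, limma adjusted p = 0.00648). The call of the brightest one is fragile. It was lost when any of 13 of the 14 arrays was left out, all but diabetic replicate 2. Over all 14 fits log2 differences ran from 0.54 to 0.71, and limma adjusted p from 0.0309 (without diabetic replicate 2) to 0.106. Without the 3 arrays of lowest median signal (control replicates 3 and 5, diabetic replicate 1) the calls of Igfbp3 (limma adjusted p = 0.208) and Igfbp5 (0.137) were both lost, with differences of 0.63 and -1.04.

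Igfbp5, a binding protein that also attaches to extracellular matrix, was lower in diabetes by its brightest probe set, 1370960_at. Control signals ran from 10.82 over 11.46 to 11.67 and diabetic signals from 9.66 over 10.12 to 11.16. Of the diabetic animals 6 lay below all controls, and replicate 2, at 11.16, lay among them. The log2 difference was -1.13 ± 0.21 (SE, limma adjusted p = 0.0124, exact permutation p = 0.00175), and -1.11, -0.65 and -1.48 within classes A, B and C. The call held when each array was left out in turn (limma adjusted p from 0.00128 to 0.0338).

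The other 4 probe sets of Igfbp5 were dimmer, and none of them was called. The next brightest, 1387348_at, was 0.666-fold (0.508 to 0.874) and not called (limma adjusted p = 0.212), from 8.91 over 9.46 to 9.66 in control and from 8.22 over 8.87 to 9.47 in diabetic animals. Probe set 1396152_s_at differed by log2 -0.60 ± 0.30 and 1397830_at by -0.09 ± 0.33 (SE). Probe set 1387347_at differed by 0.06 ± 0.16, with a mean scaled signal below the added 50, where a fall could hardly be seen. Gaps in log2 difference between 1370960_at and 1397830_at, 1396152_s_at and 1387348_at were -1.04, -0.53 and -0.55, and none of these passed (exact permutation tests, p = 0.053, 0.131 and 0.162 adjusted over 13 pairs). The gap to 1387347_at was -1.19 and passed (exact permutation p = 0.00175, and 0.0228 adjusted), but 1387347_at lay near the floor. These pairs were compared after the values had been seen. The mean over all 5 probe sets differed by log2 -0.47 and was not called (limma adjusted p = 0.228).

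**Figure D3:**
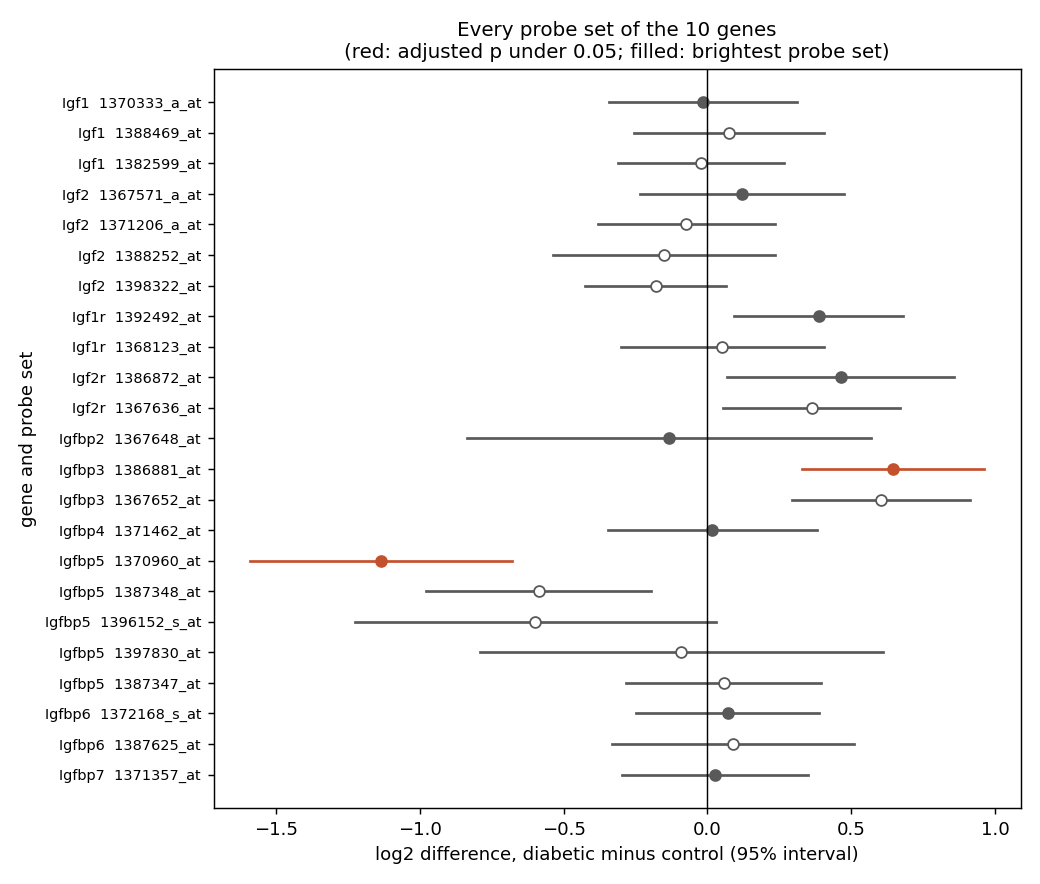
Log2 difference, diabetic minus control, with its 95% interval for each of the 23 probe sets; filled points mark the brightest probe set of a gene and red the 2 that passed. The 2 Igfbp3 probe sets sit together near 0.6, whereas those of Igfbp5 spread from -1.13 to 0.06.

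The remaining binding proteins did not pass, and their intervals differed in width. Among the brightest probe sets, that of Igfbp2, the major binding protein of fetal tissue and the nearest protein-coding neighbour of Igfbp5, varied most between animals, from 6.01 over 7.44 to 7.86 in control and from 5.88 over 7.00 to 7.47 in diabetic animals. Its mean scaled signal was low (85.6), with the lowest values near the floor. Its interval was the widest (0.560-fold to 1.48-fold, limma adjusted p = 0.952). Igfbp4, which is cut by the protease PAPP-A, was 1.01-fold (0.786 to 1.30), with diabetic replicate 5 at 9.42 and the other diabetic animals at 8.70 or below. Igfbp6, which prefers IGF-II, was 1.05-fold (0.842 to 1.31), and Igfbp7, a low-affinity relative found in vessel walls, 1.02-fold (0.814 to 1.27). For Igfbp6 the second probe set gave 1.06-fold. Igfbp1, the next protein-coding neighbour of Igfbp3 and no member here, is known as the liver's insulin-repressed binding protein. It lay near the floor in both groups (log2 6.15 ± 0.49 in control and 6.07 ± 0.21 in diabetic animals, SD, n = 7) and is named here after its values were seen.

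Among genes that carry, cut or protect the binding proteins, 1 of 14 measured was higher and 0 lower (18 listed), with a median log2 difference of -0.02. The gene that rose was Plat, tissue plasminogen activator, a serine protease that makes plasmin. It ran from 10.56 over 10.79 to 11.27 in control and from 11.38 over 11.80 to 11.93 in diabetic animals, without overlap, a 1.79-fold difference (1.45 to 2.22, limma adjusted p = 0.00581). Its log2 differences within the 3 classes were 0.71, 0.64 and 1.07, and without the same 3 arrays it was 0.82 (limma adjusted p = 0.0537). Adamts1, a matrix protease, was 1.40-fold (limma adjusted p = 0.439), Stc1, a stanniocalcin that inhibits PAPP-A, 1.27-fold (0.446), and Plau, the urokinase, 0.814-fold (0.703). Stc2 and Htra1, another PAPP-A inhibitor and a secreted serine protease, differed by log2 0.001 and -0.06. Igfals, the acid-labile subunit made in liver, lay near the floor (log2 5.92 in both groups). Pappa was not analysed here.

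None of the 10 measured proteins with an IGFBP-type domain passed (limma, 1 at an unadjusted p under 0.05, median log2 difference -0.12). Such counts stand against 9.61% of all probe sets at an unadjusted p under 0.05. Esm1, an endothelial proteoglycan, was 0.698-fold (0.500 to 0.975, limma adjusted p = 0.463), and Ccn2, connective tissue growth factor, 1.31-fold (0.925 to 1.86, 0.666). Kazald1 was 1.15-fold (0.917 to 1.44), and Ccn6 lay under the offset on average (0.852-fold, 0.625 to 1.16). Of 29 measured genes of IGF and insulin receptor signalling 0 passed (limma, 3 at an unadjusted p under 0.05, near the share over all probe sets), with a median difference of -0.02. Eif4ebp1, a repressor of translation that mTOR switches off, came nearest by limma (1.53-fold, 1.22 to 1.93, limma adjusted p = 0.0829, and 0.00625 with class as a block). It ran from 9.55 over 10.10 to 10.38 in control and from 10.20 over 10.59 to 10.98 in diabetic animals, with 5 of 7 above all controls (exact permutation p = 0.00291, unadjusted). Mtor itself was 0.866-fold (0.758 to 0.991, limma adjusted p = 0.469), with 6 of 7 diabetic animals below all controls (exact permutation p = 0.00117, unadjusted). Akt1, a kinase below the receptor, was 0.813-fold (0.667 to 0.991), and Pik3r3, a regulatory subunit of phosphoinositide 3-kinase, 0.797-fold (0.611 to 1.04). Insr, the insulin receptor, was 1.18-fold (0.962 to 1.45, limma adjusted p = 0.643).

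Of 11 genes of the growth hormone axis, which drives Igf1 transcription, 0 passed (limma, 0 at an unadjusted p under 0.05), and 9 had a difference below 0, with a median of -0.22. Ghrh, the releasing hormone, lay near the floor (0.707-fold, 0.468 to 1.07). Jak2, the kinase bound to the growth hormone receptor, was 1.12-fold (0.933 to 1.36). Socs2, a feedback inhibitor of growth hormone signalling, was 0.706-fold (0.459 to 1.09), Stat5a, a transcription factor of the pathway, 0.837-fold (0.672 to 1.04), and Ghr, the receptor, 0.845-fold (0.606 to 1.18). Of 11 genes of the Igf2 locus, Igf2 mRNA binding and imprinted growth control, 0 passed (limma, 2 at an unadjusted p under 0.05, against 9.61% of all probe sets, median 0.14). H19, a noncoding RNA next to Igf2 that is expressed from the maternal copy, ran from 8.18 over 8.42 to 8.81 in control and from 8.55 over 9.25 to 10.15 in diabetic animals. With 5 diabetic animals above all controls, its 1.66-fold difference (1.23 to 2.24) did not pass (limma adjusted p = 0.132). Igf2bp2, which binds Igf2 mRNA, was 1.32-fold (1.01 to 1.73, limma adjusted p = 0.493). Meg3, an imprinted noncoding RNA, was 0.717-fold (0.497 to 1.03), and Plagl1, an imprinted zinc finger factor, 1.29-fold (0.902 to 1.84). Of 11 genes of the mannose 6-phosphate pathway, which shares Igf2r as a receptor, 0 passed (limma, 0 at an unadjusted p under 0.05). Ctsb, the lysosomal protease cathepsin B, was 1.17-fold (0.971 to 1.40), and Sort1, the sorting receptor sortilin, 1.13-fold (0.941 to 1.35). Nagpa, the enzyme that uncovers the mannose 6-phosphate signal, was 1.19-fold (0.814 to 1.74). The cation-dependent receptor M6pr differed by 1.06-fold (0.928 to 1.21), and all 11 lay between log2 -0.10 and 0.25.

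**Figure D4:**
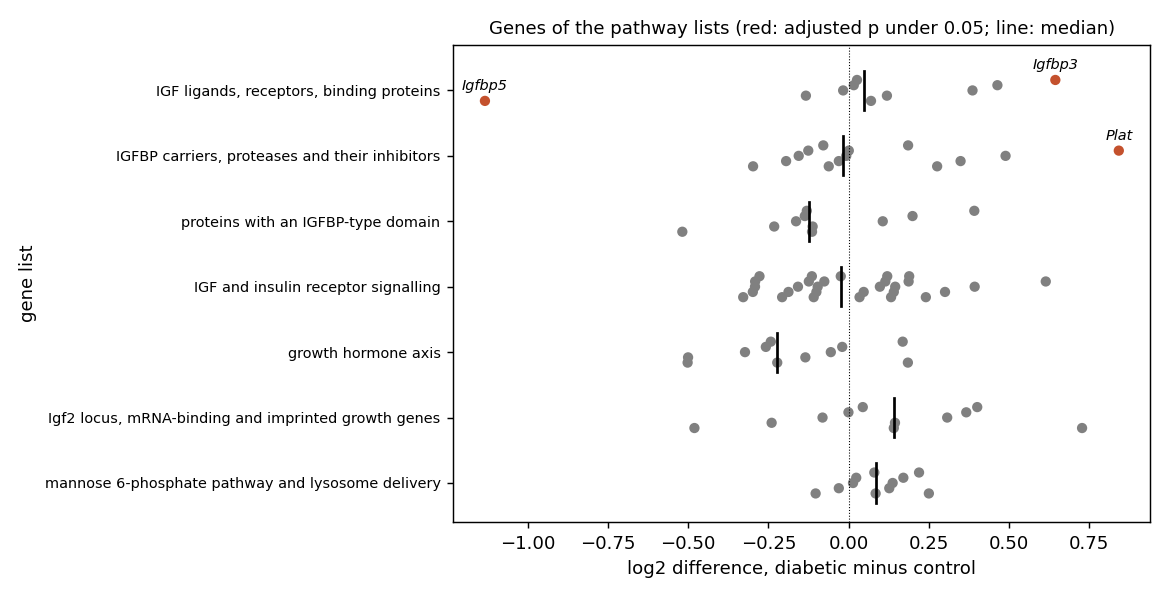
Log2 difference, diabetic minus control, of each measured gene in the IGF family and in 6 lists of related genes, 1 point per gene by its brightest probe set, with a line at each list's median and red for genes that passed. Igfbp3, Igfbp5 and Plat are the genes that passed, and the medians lie between -0.22 and 0.14.

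In bulk tissue, fewer cells of a type and less RNA per cell cannot be told apart, so markers of the cells that could carry these genes are given beside them. Cardiomyocyte markers were present at high signal in every array (Myh6 and Myl2 at group means from 14.80 to 15.02). Of 7, 0 passed, and against 9.61% of all probe sets, 2 had an unadjusted p under 0.05. These were Myh6, the fast myosin heavy chain, at log2 -0.23 with all 7 diabetic animals below all controls, and Myh7, the slow one, at 0.38 with 6 above (limma adjusted p = 0.363 and 0.0988). Summed cardiomyocyte signals ran from 202315 to 220775 in control and from 204202 to 216226 in diabetic arrays. Of 9 fibroblast, 7 endothelial and 8 smooth muscle and pericyte markers 0 passed, with 0, 1 and 0 at an unadjusted p under 0.05. The endothelial one was Vwf (log2 0.57, limma adjusted p = 0.385). Differences were above 0 for 4 fibroblast, 6 endothelial and 6 smooth muscle markers. Summed scaled signals for fibroblasts ran from 39707 to 59206 in control and from 43709 to 64130 in diabetic arrays. For endothelium the sums ran from 13270 to 16229 and from 13842 to 18058, and for smooth muscle from 5363 to 8208 and from 5993 to 7854. Of the diabetic sums, 1 for fibroblasts, 4 for endothelium and 0 for smooth muscle lay above all controls. Of 8 macrophage markers 0 passed, with 4 at an unadjusted p under 0.05 and sums from 4130 to 6970 and from 5494 to 8656 (Cd68 at log2 8.43 in control and 9.02 in diabetic animals, Cd163 at 8.16 and 8.87). Mrc1 came nearest (log2 0.71, limma adjusted p = 0.0722), Csf1r differed by 0.11, and Aif1 went the other way (-0.19). Fat cell sums were higher in all 7 diabetic animals, from 398 to 661 and from 765 to 1577, but Cfd made up most of the sum (mean scaled signal 625, against 86.8 or less for each of the other 4 markers). Of its 5 markers Cfd rose (log2 1.23), Adipoq differed by 0.36 and Plin1 by 0.05, and 2 lay near the floor. Mesothelial markers had 1 of 5 called (Msln, log2 0.67; sums 697 to 981 and 795 to 1255). Red cell markers had 1 of 3 called (Slc4a1, log2 -1.22), while Hbb and Alas2 differed by 0.69 and 0.56 and did not pass (sums 1769 to 7927 and 1736 to 8409). Atrial markers had 0 of 4 called, with sums from 11067 to 48132 and from 23155 to 48527. All 4 had differences above 0 (log2 0.56 to 1.32), with 1, Nppa, at an unadjusted p under 0.05 (limma adjusted p = 0.235). Their spread between animals could be wide, with Myl7 from log2 8.50 to 14.18 in control and from 8.79 to 13.83 in diabetic animals. No detection calls were used, so a summed marker level above 0 does not show that a cell type was present. The part of these markers in the Igfbp3 and Igfbp5 results was not tested.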

How the data were processed

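Groups of 7 control and 7 diabetic rats were taken from the sample titles, and 5 µg of left ventricle RNA was used per array. The deposited table holds linear probe set intensity values for 31099 probe sets, not normalised between arrays (medians 14.8 to 85.3). Per the submitters' processing notes the tools included MAS5, RMA, affy and limma, with no role or version stated. Each array was scaled so that its 2% trimmed mean was 500, 50 was added, log2 was taken and arrays were quantile normalised, which assumes that most genes do not change. Then 57 control probe sets were dropped. The test was limma 3.58.1 under R 4.3.3 (group only, two-sided), adjusted by Benjamini-Hochberg over 31042 probe sets, threshold 0.05, after a check on simulated data. Exact permutation tests used all 3432 assignments of arrays.

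Symbols came from the array annotation, and all 23 matched RefSeq by gene ID. All members are named, and of each list the called genes, up to 4 with the smallest p and some genes set with the list. Members and lists were chosen with earlier results of these data known. Animals are separate per the labels, and 2 extraction kits were used, not assigned to animals in the labels. The number of arrays limits the precision, and no detection calls were used. Beta-actin 3′ over 5′ log2 ratios averaged 1.03 ± 0.40 in control and 1.09 ± 0.39 in diabetic arrays (SD, n = 7, exact permutation p = 0.818).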

Additional observations from a re-analysis of the deposited data

Results flagged for a closer look

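In 3 of 46 sets of 7 values (23 probe sets in 2 groups), 1 animal lay far from the rest of its group by Dixon's criterion, which marks about 1 in 20 such sets by chance. For Igf1r probe set 1368123_at, control replicate 5 was at 9.21 (log2 signal), with the next control at 8.39. For Igfbp4, diabetic replicate 5 was at 9.42 and the next diabetic animal at 8.70. For Igfbp5 probe set 1387347_at, whose signal was near the floor, diabetic replicate 5 was at 7.02 and the next at 6.12.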

How the results depend on the processing

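The Igfbp3 call depended on several choices and the Igfbp5 call on fewer. The number of members called higher was 1, and 0 with an offset of 16 (Igfbp3 limma adjusted p = 0.069), with the beta-actin ratio as a covariate (0.0552), without the 3 arrays of lowest median, control replicates 3 and 5 and diabetic replicate 1 (0.208), or with the replicate block (0.188). It was 2 with the class of arrays as a block, and ran from 0 to 1 with each array left out. By unadjusted exact permutation tests it was 3, and no share over all probe sets is given for that test. The number called lower was 1, and 0 without those 3 arrays (Igfbp5 limma adjusted p = 0.137), with the mean over the probe sets of a gene (0.228) or with the replicate block (0.105). With each array left out it stayed at 1. Within classes A, B and C limma called 0 members higher and 0 lower, with 2, 2 and 1 higher and 1, 0 and 1 lower at an unadjusted p under 0.05.

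Over all probe sets 354 were called, from 261 to 332 with each array left out. The count was 566 with an offset of 200, 543 with a trended robust prior, 645 with class as a block, 558 without dim probe sets, 190 without the 3 arrays and 143 with the replicate block. Within classes it was 0 each (2389, 3203 and 2431 at an unadjusted p under 0.05). Same-numbered replicates did not deviate together (correlations from -0.161 to 0.0865). No pairing by number was seen, though one with little effect on expression would not show here. Of 1601 recomputed values of members and named genes 0 reversed a called direction, 43 lost a call, 14 gained one, and 82 uncalled values changed sign. Low signal limits 4 member probe sets, whose means lie under the offset. Other dim probe sets, such as that of Igfbp2, also had single values near the floor. The cause of the lost calls was not tested.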

Other observations

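Igfbp2 signals were low (mean scaled signal 85.6) and spread widely in both groups. Among controls, replicates 3, 4 and 5 lay between 6.01 and 6.49 (log2 signal) and the other 4 between 7.44 and 7.86. Diabetic animals ran from 5.88 (replicate 4) to 7.47 (replicate 6). The lowest Igfbp2 values of both groups lay near the floor, where the offset alone gives 5.64. How much of this spread is noise at low signal was not tested. By the brightest probe sets, diabetic replicate 2 had the lowest Igfbp3 and the highest Igfbp5 signal of its group, 9.22 and 11.16. Both values lay nearest to the controls. By the second Igfbp3 probe set, 1367652_at, replicate 2 was at 9.17 and replicate 4 was lowest, at 8.72.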
